A study of Mus musculus with 12 samples.

Results

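The genes described here are 10 members of the p53 pathway and the GADD45 family, namely Trp53, Mdm2, Ccng1, Cdkn1a, Gadd45a, Gadd45b, Btg2, Sesn1, Trp53inp1 and Phlda3. They were selected by gene symbol from the 37991 genes of the count table, with earlier results of these counts known, so their values are a description and do not stand as independent evidence that the pathway moved. All 10 passed the filter on low counts that left 13538 genes for testing. RNA was sequenced from splenic B cells of 8-week-old mice in 4 groups of 3 replicates, 12 samples in all. Resting B cells had been purified by depletion of other cells, and RNA was taken from them directly (resting) or after 3 h in culture with anti-IgM, which cross-links the BCR, and IL-4. Cre-only mice carry the CD23-iCre transgene alone. Runx1 c-k/o mice carry the same transgene together with Runx1 alleles whose exon 4 is flanked by LoxP sites, so both genotypes express the recombinase. CD23-iCre is first active at the transitional stage, and deletion therefore takes place in maturing B cells and not in their precursors. The study calls the 3 replicates of each group biological, and the labels number them without naming animals. The p-values measure the spread between these samples, which may be technical in part.

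p53, the product of Trp53, is a transcription factor held at a low level by the ubiquitin ligase MDM2 and released when DNA is damaged or growth signals conflict. Its target genes slow the cell cycle, assist DNA repair, limit growth signalling or promote cell death, and Mdm2 is itself a target, which closes a feedback loop. The GADD45 proteins are small stress-induced partners of the MAP kinase kinase kinase MAP3K4, of PCNA and of the CDK1 and cyclin B1 complex. Gadd45b is also a well-known NF-kB target in activated lymphocytes, and quiescent lymphocytes are known to express antiproliferative genes such as Btg2 at high levels.

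The p53 protein binds a site made of 2 copies of a 10-base half-site, and such sites near gene starts are part of what defines the pathway. The sequences are shown to describe this feature apart from expression, and not every member held a match under the rule used here. In the genome build of the counts (NCBIM37, mm9), the stretch of 3000 bases on each side of the gene start was scanned for 2 half-sites with at most 1 mismatch in all and a spacer of 0 or 1 base. The C and G of each half-site had to match. Of 13514 genes scanned, 408 held such a match, or 3.02%, and of the 10 members 3 did, namely Cdkn1a, Ccng1 and Trp53inp1. A member without a match may still hold a p53 site that this rule or stretch leaves out. Distances run from the gene start to the middle of a match. The Cdkn1a match lay 42 bases before the start at chr17:29227873-29227892 on the + strand. This start is the farther upstream of the 2 starts of Cdkn1a. The 2 Ccng1 matches lay 160 bases before and 366 bases after the start, at chr11:40568964-40568983 and chr11:40568438-40568457 on the - strand, and the Trp53inp1 match lay 1309 bases before the start at chr4:11082259-11082279 on the + strand. They read as follows, 5′ to 3′ on the strand of the gene, with capitals for the half-sites and lower case for a spacer base.
Cdkn1a: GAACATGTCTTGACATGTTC
Ccng1, before the start: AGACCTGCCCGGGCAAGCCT
Ccng1, after the start: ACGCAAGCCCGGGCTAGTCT
Trp53inp1: AAACATGTCCaGGACTAGCCT

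The 250 bases before the start were read for 9 members from the RefSeq promoter table (GRCm38.p6), in 11 windows because Cdkn1a and Sesn1 have 2 starts each. Those of Gadd45a, Cdkn1a (the start farther upstream) and Btg2 are printed because these genes showed the smallest p-values between genotypes at 3 h. Capitals mark every match, on either strand, to the motifs searched, which were the RUNX core TGTGGT, the CRE TGACGTCA and its core TGACG (which lies within the CRE), the E-box CACGTG, the EGR site GCGGGGGCG and a single p53 half-site without mismatch.
Gadd45a, chr6:67037408-67037657, - strand: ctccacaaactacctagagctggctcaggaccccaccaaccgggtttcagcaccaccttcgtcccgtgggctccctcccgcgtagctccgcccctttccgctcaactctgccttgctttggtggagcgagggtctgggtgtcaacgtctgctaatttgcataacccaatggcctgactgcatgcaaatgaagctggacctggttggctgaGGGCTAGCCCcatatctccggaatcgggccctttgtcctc
Cdkn1a, chr17:29090729-29090978, + strand: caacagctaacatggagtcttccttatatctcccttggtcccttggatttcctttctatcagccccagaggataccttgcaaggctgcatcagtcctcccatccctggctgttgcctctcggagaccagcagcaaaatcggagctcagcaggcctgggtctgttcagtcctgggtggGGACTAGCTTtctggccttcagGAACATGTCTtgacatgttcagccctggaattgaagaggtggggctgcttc
Btg2, chr1:134079156-134079405, - strand: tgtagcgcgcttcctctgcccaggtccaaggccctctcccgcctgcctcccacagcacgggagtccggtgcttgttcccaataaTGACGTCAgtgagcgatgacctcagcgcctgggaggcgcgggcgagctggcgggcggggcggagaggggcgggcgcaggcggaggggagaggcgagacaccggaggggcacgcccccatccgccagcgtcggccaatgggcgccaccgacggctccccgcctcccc

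A p53 half-site was present in 6 of the members' 11 windows (Trp53, Mdm2, Cdkn1a, Gadd45a, Ccng1 and Sesn1), and in 7.13% of the 32851 windows of all genes. The half-site of Gadd45a lies 40 to 31 bases before its start. Cdkn1a holds 2 of them, 73 to 64 and 51 to 42 bases before its farther upstream start. The second is the first part of the full match printed above. The window of the other Cdkn1a start held no match to any motif searched. Btg2 holds a complete CRE, 166 to 159 bases before its start, a motif found in 1.55% of all windows. The CRE core alone was found in 17.8% of all windows and, beside Btg2, in 1 window of Sesn1. The EGR site was in 2.57% of all windows and in the same window of Sesn1, and the E-box in 6.02% of all windows and in that of Gadd45b. The RUNX core was in 14% of all windows and in 0 of the 11, which says only that these letters are not in these bases. Trp53inp1 had no window in the table.

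Counts per sample added up to between 14442251 and 23641552. Levels are given as normalized CPM, a count relative to its TMM-scaled library, and 3 counts correspond to 0.127 to 0.208 CPM before scaling, a floor that covers counting error only. The 8 B cell markers summed to 14830 to 18350 CPM at rest and 7194 to 8393 CPM at 3 h, the 6 T cell markers to at most 6.6 CPM and the 4 NK markers to at most 5.84 CPM. The 7 myeloid markers summed to 213 to 417 CPM at rest and 17.6 to 46.5 CPM at 3 h, and the 4 erythroid markers to 36.1 to 253 CPM in resting and 12.3 to 136 CPM in 3-h Cre-only samples, against 246 to 410 CPM and 115 to 203 CPM in Runx1 c-k/o samples. The genotypes did not overlap in the sum of the 4 plasma cell markers at 3 h (286 to 348 CPM in Cre-only against 398 to 439 CPM in Runx1 c-k/o samples) or of the 6 marginal zone B markers at rest (1078 to 1157 against 1290 to 1399 CPM). These sums overlapped at rest (195 to 264 against 165 to 401 CPM) and at 3 h (690.3 to 732 against 692 to 785 CPM), respectively. Of the plasma cell markers, only Xbp1 did not overlap at 3 h (227, 248 and 249 CPM in Cre-only against 377, 303 and 301 CPM in Runx1 c-k/o samples). Sdc1, Prdm1 and Jchain overlapped there. Of the marginal zone B markers, S1pr1, Mzb1 and Pdia4 did not overlap at rest, and Cd1d1, S1pr3 and Dtx1 did. The part of the marker genes in the results was not tested. The libraries of resting Runx1 c-k/o replicate 2 and 3-h Runx1 c-k/o replicate 1 stood apart. Genes with over 5858 exon bases were lower in them against genes with under 1655, by a median difference of -0.44 and -0.68 on the log2 scale. Each library was set against the other samples of its group, so values within a group are linked. Cre-only libraries lay between -0.03 and 0.04. The other Runx1 c-k/o libraries lay between 0.19 and 0.50, the highest being 3-h replicate 3. Runx1 itself was not lower in Runx1 c-k/o samples, with 83.6, 81.8 and 86.7 CPM in resting Cre-only and 102, 95.7 and 103 CPM in resting Runx1 c-k/o cells. At 3 h it stood at 38.5, 37.0 and 34.9 CPM in Cre-only and 47.3, 70.6 and 74.5 CPM in Runx1 c-k/o cells. Runx1 was called higher in Runx1 c-k/o cells at 3 h (log2 fold change 0.80, SE 0.138, adjusted p = 0.00769 by edgeR), also in every alternative run but the fit of only the groups compared (adjusted p = 0.099). These counts cover all exons, so they do not check the deletion of exon 4. The loss was examined at the protein level in the study, which reports by Western blot that unstimulated knockout cells had no RUNX1 protein.

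The members spanned a wide range of levels. Per length of exon, as TPM (a unit that corrects for exon length and library size and allows genes to be compared within a sample), Btg2 was the highest in resting Cre-only cells at 487 ± 40.7 TPM (SD, n = 3). Sesn1 followed with 175 ± 18.6 TPM and Trp53inp1 with 145 ± 7.44 TPM. Btg2 is an antiproliferative partner of the mRNA deadenylase CCR4-NOT, Sesn1 encodes a sestrin that restrains mTORC1, and Trp53inp1 encodes a stress-induced nuclear protein. Trp53 stood at 73.7 ± 2.94 TPM, and Mdm2 and Gadd45a, at 61.1 ± 1.94 and 60.0 ± 2.37 TPM, did not differ beyond their spread. Ccng1 and Gadd45b had 48.3 ± 2.50 and 39.6 ± 5.78 TPM, Cdkn1a only 7.49 ± 1.19 TPM and Phlda3 0.659 ± 0.204 TPM. The order was different at 3 h in Cre-only cells, where Gadd45b was the highest at 185 ± 16.7 TPM and Trp53 the next at 130 ± 0.175 TPM. Ccng1 and Btg2, at 71.5 ± 8.30 and 62.5 ± 7.28 TPM, overlapped in their spread, and so did Sesn1 and Gadd45a, at 14.1 ± 1.47 and 11.4 ± 1.29 TPM. In Runx1 c-k/o cells Btg2 was again the highest at rest (482 ± 27.2 TPM) and Gadd45b at 3 h (245 ± 24.9 TPM). There Gadd45a, at 24.3 ± 2.62 TPM at 3 h, lay above Sesn1 at 14.7 ± 6.37 TPM.

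**Figure D1:**
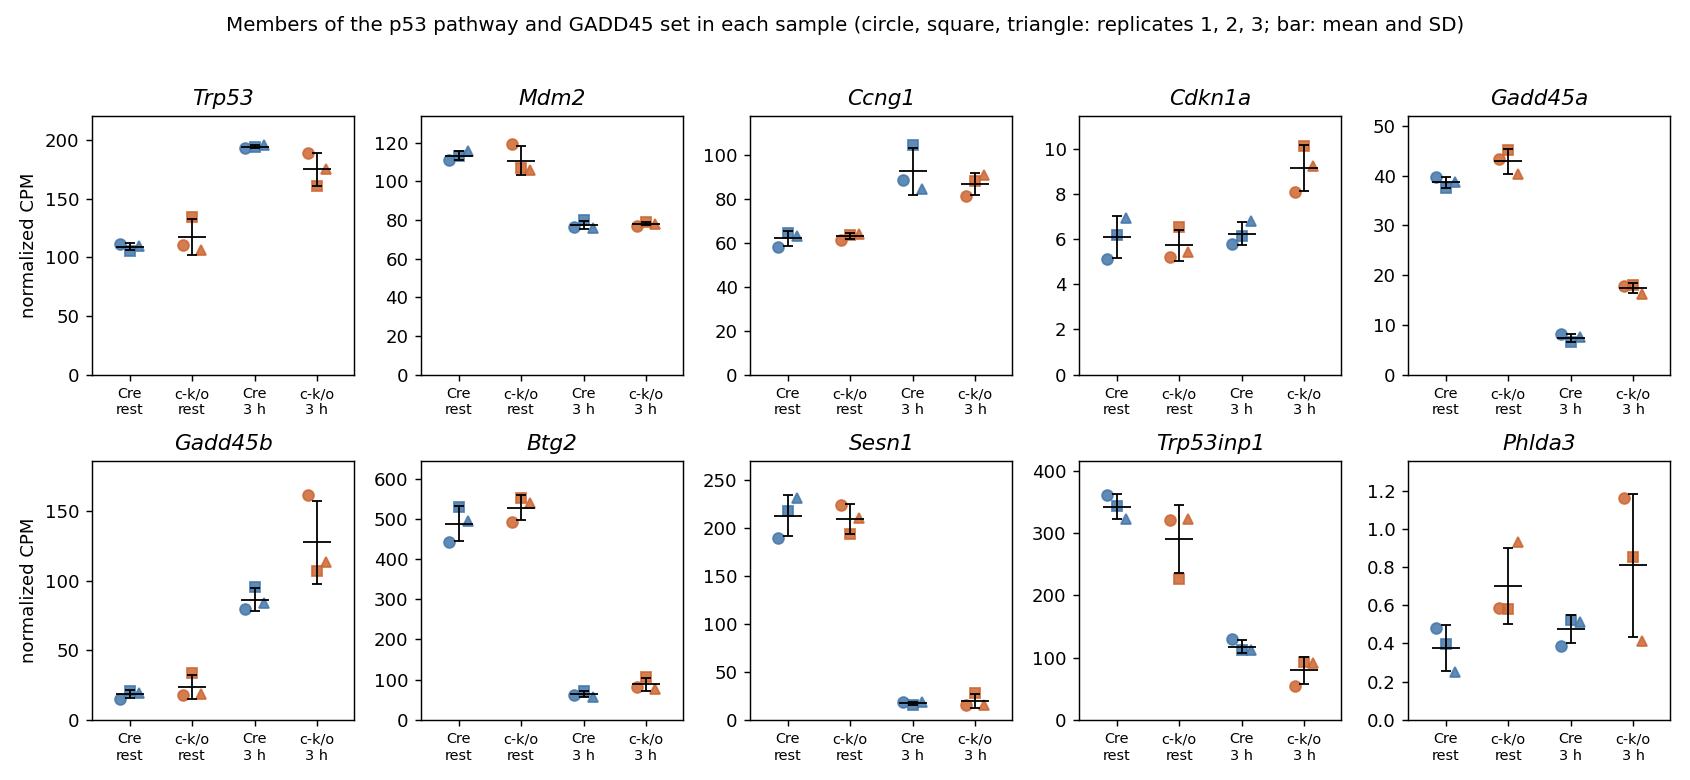
Normalized CPM (y axis, linear from 0, a scale of its own in each panel) of the 10 genes in resting and 3-h samples of Cre-only (blue) and Runx1 c-k/o (orange) mice; each symbol is 1 of 3 replicates and the black bar is the mean with its SD. Gadd45a falls from about the same resting level to 6.6 to 8.2 CPM in Cre-only and to 16.1 to 18.05 CPM in Runx1 c-k/o cells, a wider gap on the log2 scale than in the other 9 genes at 3 h.

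The comparison of genotypes asked whether loss of Runx1 altered these genes before and during the response to BCR stimulation. Gadd45a was the member that differed: its level fell in both genotypes within 3 h, but less in Runx1 c-k/o cells, which were left with the higher level. The gene, at chr6:66985090-66987451 on the - strand, encodes the founding GADD45 protein. Resting samples held 39.8, 37.6 and 38.7 CPM in Cre-only and 43.2, 45.1 and 40.2 CPM in Runx1 c-k/o cells. At 3 h the Cre-only samples held 8.2, 6.6 and 7.52 CPM, and the Runx1 c-k/o samples 17.9, 18.05 and 16.1 CPM. Every Runx1 c-k/o sample lay above every Cre-only sample at both times, by a narrow margin at rest and a wide one at 3 h. The fold was 2.32 at 3 h (log2 fold change 1.22, SE 0.103, adjusted p = 7.2e-05 by edgeR's quasi-likelihood test) and 1.11 at rest (log2 fold change 0.15, SE 0.0927, adjusted p = 0.616). From rest to 3 h Gadd45a fell 5.17-fold in Cre-only and 2.47-fold in Runx1 c-k/o cells.

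The difference between these falls was itself tested as the interaction of genotype and activation, and for Gadd45a it was 1.07 on the log2 scale (SE 0.138, adjusted p = 0.0116 by edgeR). Of 13538 genes, 11 were called in that test, or 0.0813%, and Gadd45a was the 1 member among them. With resting and 3-h samples paired by their number within each genotype (a replicate block), the difference was 1.08 with an adjusted p of 0.147 by edgeR, so the call was lost. It was also lost, with adjusted p-values between 0.0503 and 0.0601 and differences between 1.04 and 1.09, when any of 5 samples was left out: a resting Cre-only sample (replicate 1, 2 or 3), 3-h Cre-only replicate 3 or 3-h Runx1 c-k/o replicate 2. The genotype difference at 3 h stayed called in all 14 alternatives, with log2 values between 1.14 and 1.30. Without both libraries that stood apart it was 1.21, with an adjusted p of 7.85e-07 by edgeR, and the interaction was 1.09, with an adjusted p of 0.000273. A noncoding gene on the other strand, E230016M11Rik, shares 337 exon bases with Gadd45a and had 5 to 66 reads per sample. The strand setting of the counting was not stated in the sources used here, so reads in the shared stretch cannot be assigned with certainty.

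At rest 0 of the 10 members were called between genotypes, where 1.49% of all genes were, and 0 had an unadjusted p under 0.05, as 11.1% of all genes had. DESeq2 also called 0, against 2.79% of all genes. The median log2 fold change of the members was 0.07, against 0.03 over all tested genes, and ran from 0.01 (without Cre-only replicate 1 or Runx1 c-k/o replicate 2) to 0.09 when 1 sample was left out. In 2 members, Gadd45a and Phlda3, the 3 Runx1 c-k/o samples all lay above the 3 Cre-only samples, and 23.7% of all genes showed such a separation in 1 direction or the other. At 3 h 1 member was called, Gadd45a, where 2.77% of all genes were, and 5 had an unadjusted p under 0.05, as 16.2% of all genes had. DESeq2 called 3 members at 3 h and 5.24% of all genes. A fit with 1 RUVs factor of unwanted variation called 4 members and 7.65% of all genes, and edgeR without both libraries that stood apart called 5 members and 6.65% of all genes. The study's own comparison used RUV-seq factors whose number is not given in the sources used here. The median was 0.33, against 0.01 over all tested genes. It was 0.17 without Runx1 c-k/o replicate 2 and 0.43 without replicate 3, the ends of its range when 1 sample was left out. With only the groups compared it was 0.19, over 9 members, as Phlda3 was not tested there. The samples of the genotypes did not overlap in 6 members, higher in Runx1 c-k/o cells for Gadd45a, Gadd45b, Cdkn1a and Btg2 and lower for Trp53 and Trp53inp1, and 21.8% of all genes showed no overlap.

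**Figure D2:**
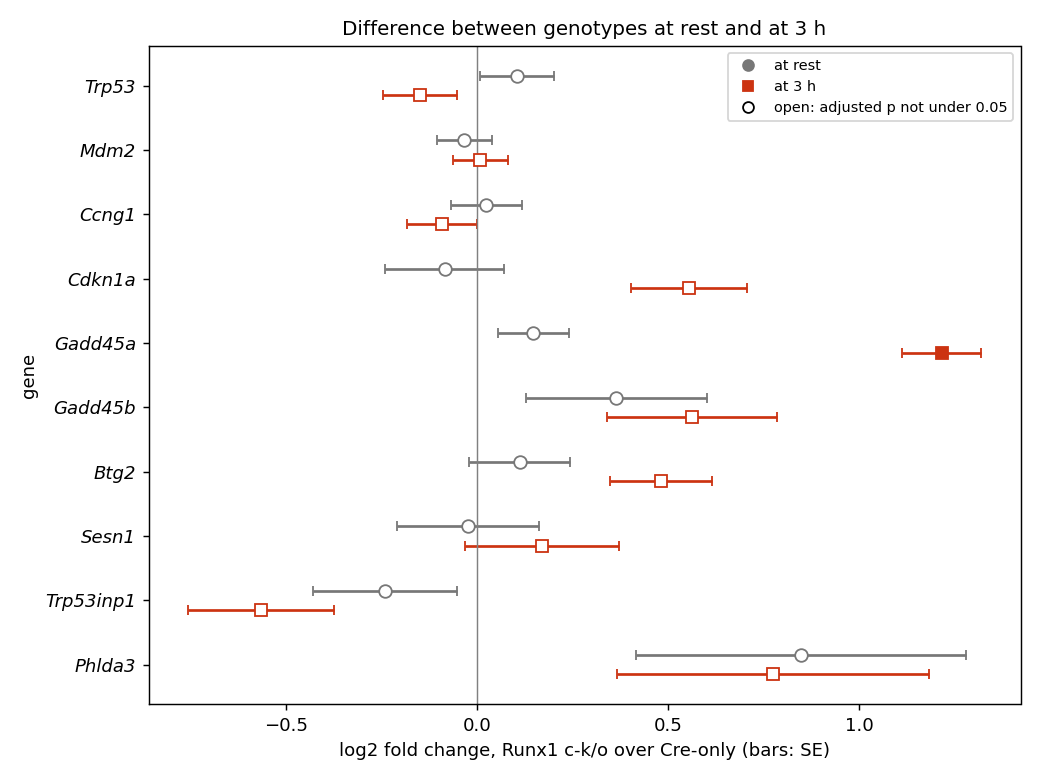
Log2 fold change of Runx1 c-k/o over Cre-only cells (x axis, bars are SE from the edgeR fit) for the 10 genes at rest (grey circles) and at 3 h (red squares), filled where the adjusted p was under 0.05. The 1 filled point is Gadd45a at 3 h, at 1.22, and Cdkn1a, Gadd45b and Btg2 lie between 0.48 and 0.56 at 3 h with open symbols.

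Cdkn1a encodes p21, the CDK inhibitor that mediates much of the cell cycle arrest by p53, and maps to chr17:29227924-29237667 on the + strand. It was scarce, at 5.11, 6.21 and 6.94 CPM in resting and 5.78, 6.14 and 6.82 CPM in 3-h Cre-only samples. In Runx1 c-k/o samples it had 5.21, 6.53 and 5.44 CPM at rest and 8.11, 10.1 and 9.25 CPM at 3 h. All 3 Runx1 c-k/o samples at 3 h lay above every other sample. The fold between genotypes was 1.47 at 3 h (log2 fold change 0.55, SE 0.152), short of the threshold with an adjusted p of 0.0815 by edgeR. It passed with DESeq2 (adjusted p = 0.0141) and with the RUVs factor in edgeR (0.0301), and in edgeR also without 3-h Runx1 c-k/o replicate 1 (0.0392) and without both libraries that stood apart (0.0115). On activation Cdkn1a rose 1.60-fold in Runx1 c-k/o cells (adjusted p = 0.00156 by edgeR), and in Cre-only cells its log2 fold change was 0.04 (SE 0.154, adjusted p = 0.827). The difference between these responses, 0.64 on the log2 scale, did not pass (SE 0.218, adjusted p = 0.697 by edgeR).

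Btg2, at chr1:135971747-135975697 on the - strand, had the highest resting level and fell steeply. Resting samples held 442, 529 and 495 CPM in Cre-only and 492, 553 and 539 CPM in Runx1 c-k/o cells. After 3 h they held 62.0, 71.0 and 56.6 CPM in Cre-only and 82.8, 106 and 75.9 CPM in Runx1 c-k/o cells. The genotypes overlapped at rest, and at 3 h the lowest Runx1 c-k/o sample lay above the highest Cre-only sample. The fall was 7.73-fold in Cre-only and 5.99-fold in Runx1 c-k/o cells, both called. The genotype fold at 3 h, 1.40 (log2 fold change 0.48, SE 0.134), had an adjusted p of 0.086 by edgeR. It passed in 3 of 14 alternatives, namely with DESeq2 (adjusted p = 0.00976), with the RUVs factor in edgeR (0.0356) and without 3-h Runx1 c-k/o replicate 3 (0.0389). It did not pass without both libraries that stood apart. Leaving out 1 sample gave log2 fold changes of 0.33 to 0.58.

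Gadd45b encodes the GADD45 protein linked to NF-kB signalling, and lies at chr10:80392836-80394949 on the + strand. In contrast to Gadd45a it rose, from 15.2, 20.6 and 19.2 CPM at rest to 79.7, 95.3 and 84.0 CPM at 3 h in Cre-only cells. In Runx1 c-k/o cells it rose from 18.2, 33.7 and 18.8 CPM to 162, 107 and 114 CPM. The rises were 4.72-fold and 5.41-fold, and every 3-h sample lay above every resting one. The highest Runx1 c-k/o values, 33.7 CPM at rest and 162 CPM at 3 h, came from the libraries in which long genes were low. The genotype difference at 3 h was 0.56 on the log2 scale (SE 0.222, adjusted p = 0.242 by edgeR). Without both of these libraries it was 0.38, with an adjusted p of 0.0253 by edgeR, so the value was smaller and the call was gained.

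Trp53inp1, at chr4:11083578-11101526 on the + strand, fell in both genotypes. Cre-only samples held 361, 344 and 322 CPM at rest and 129, 112 and 112 CPM at 3 h. Runx1 c-k/o samples held 320, 227 and 323 CPM at rest and 54.3, 93.6 and 91.1 CPM at 3 h. The lowest value at each time, 227 and 54.3 CPM, came from the 2 libraries with low long genes, and this gene has 6475 exon bases. The falls were 2.91-fold and 3.64-fold, both called, and the difference between genotypes at 3 h was -0.56 on the log2 scale (SE 0.190, adjusted p = 0.166 by edgeR). Without these libraries it was -0.33 (adjusted p = 0.00778 by edgeR), and with the RUVs factor -0.44 (adjusted p = 0.00138).

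The core of the feedback loop moved in opposite directions on activation, and did so in both genotypes. Trp53, at chr11:69393861-69405375 on the + strand, held 112, 106 and 109.5 CPM in resting and 193, 195 and 196 CPM in 3-h Cre-only samples. In Runx1 c-k/o samples it held 111, 135 and 106 CPM at rest and 189, 161 and 175 CPM at 3 h. It rose 1.79-fold and 1.50-fold. At 3 h every Cre-only sample exceeded every Runx1 c-k/o sample, with a log2 fold change of -0.15 (SE 0.0967, adjusted p = 0.442 by edgeR). It passed in 1 alternative, without both libraries that stood apart, at -0.185 (adjusted p = 0.0473 by edgeR). Mdm2, at chr10:117125944-117147814 on the - strand, fell from 111, 113 and 116 CPM to 76.6, 80.0 and 76.1 CPM in Cre-only cells, and from 119, 107 and 106 CPM to 77.1, 78.7 and 78.2 CPM in Runx1 c-k/o cells. Its falls were 1.46-fold and 1.42-fold. Its genotype difference was -0.03 at rest (SE 0.0718) and 0.01 at 3 h (SE 0.0723), the smallest of the 10 genes at 3 h.

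Ccng1, Sesn1 and Phlda3 were not called between genotypes under any of the alternatives run. Ccng1 encodes cyclin G1, a p53 target that acts with a PP2A phosphatase on MDM2, and lies at chr11:40562054-40568813 on the - strand. It rose from 58.3, 64.7 and 63.2 CPM to 88.6, 105 and 84.5 CPM in Cre-only cells and from 61.5, 63.9 and 64.1 CPM to 81.4, 88.1 and 91.1 CPM in Runx1 c-k/o cells. These were rises of 1.49-fold and 1.38-fold, with the genotypes overlapping at both times. Sesn1, at chr10:41530380-41628230 on the + strand, fell the most of the members. It went from 189.6, 218 and 231 CPM to 18.3, 15.2 and 18.4 CPM in Cre-only cells and from 224, 194 and 211 CPM to 15.3, 27.8 and 15.4 CPM in Runx1 c-k/o cells. The falls were 12.3-fold and 10.8-fold, and 1 sample, 3-h Runx1 c-k/o replicate 2, stood above the other 3-h samples. Phlda3 encodes a pleckstrin homology protein that limits AKT signalling and lies at chr1:137662696-137665713 on the + strand. It had 4 to 18 reads per sample, or 0.248 to 1.16 CPM, and was called in 0 of the 5 comparisons, with SEs of 0.39 to 0.60 on the log2 scale. Its genotype differences, 0.85 at rest (adjusted p = 0.511 by edgeR) and 0.77 at 3 h (0.36), were not detectable as changes at this depth.

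Over the 10 members, 3 were higher and 5 lower at 3 h in Cre-only cells, where 38.6% and 36.4% of all genes were called in these directions. In Runx1 c-k/o cells 4 were higher and 5 lower, against 37.7% and 36.6% of all genes. The member added was Cdkn1a. Trp53, Ccng1 and Gadd45b rose and Mdm2, Gadd45a, Btg2, Sesn1 and Trp53inp1 fell in both genotypes. Since most genes moved on activation, these counts lie near the background. The medians of the members, -0.25 for Cre-only and -0.15 for Runx1 c-k/o cells, compare with 0.03 and 0.00 over all tested genes. The Runx1 c-k/o median moved with single libraries, and was -0.34 without 3-h replicate 1, -0.03 without 3-h replicate 3 and -0.04 without resting replicate 3. With the RUVs factor it was -0.44, and without both libraries that stood apart -0.42. The Cre-only median was -0.62 with only the groups compared, a fit that tested 9 members, without Phlda3. In such bulk samples fewer cells of a kind and less RNA per cell cannot be told apart, and the values are relative to the sum of all genes.

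**Figure D3:**
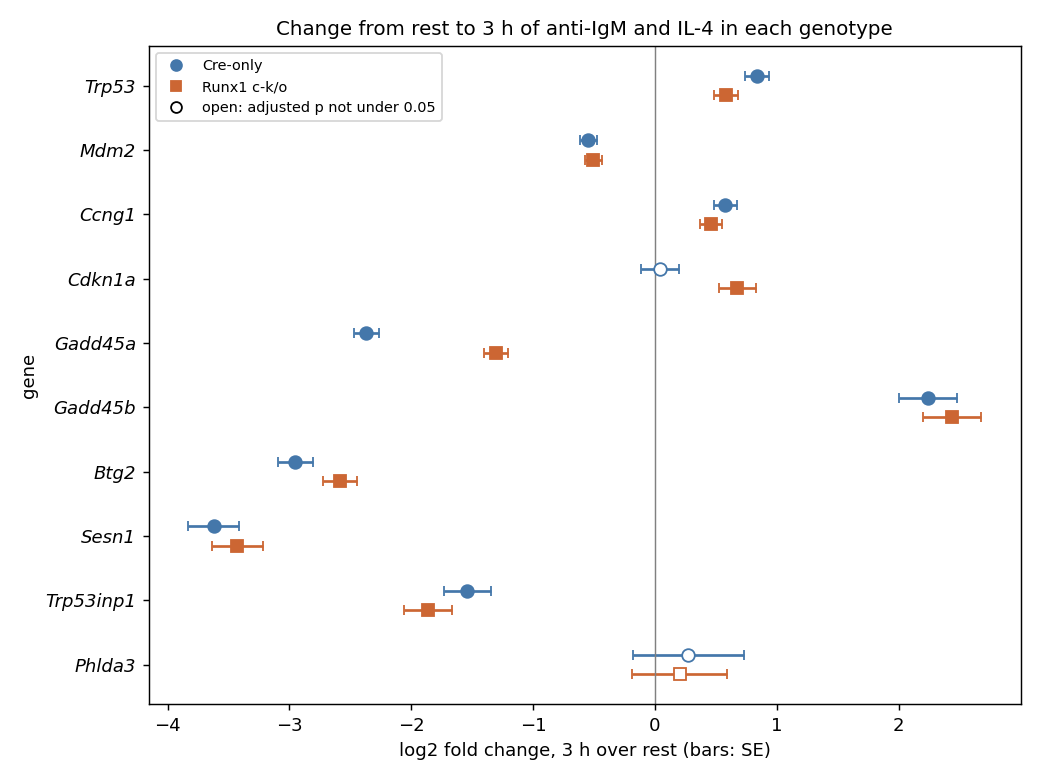
Log2 fold change from rest to 3 h (x axis, bars are SE from the edgeR fit) of the 10 genes in Cre-only (blue circles) and Runx1 c-k/o cells (orange squares), filled where the adjusted p was under 0.05. The symbols of the genotypes lie close together for most genes, from -3.62 for Sesn1 to 2.44 for Gadd45b, and apart for Gadd45a at -2.37 and -1.30.

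The genes whose pattern over the 12 samples was most like that of a member were found by the root mean square difference of log2 CPM, each gene centred on its own mean. For Gadd45a these were Gm4902 (0.193), Lgals9 (0.200) and Ccrl2 (0.221), where the spread of Gadd45a itself by that measure was 1.02. Lgals9 encodes galectin-9, and its means were 127 and 149 CPM at rest and 30.7 ± 2.67 against 51.2 ± 5.50 CPM (SD, n = 3) at 3 h, Cre-only first and Runx1 c-k/o second. For Cdkn1a they were Tmem104, Ppp1r10 and Rara (0.129 to 0.162, own spread 0.297). For Mdm2 they were Wipi2, Ddx5 and Whamm (0.043 to 0.0473, own spread 0.266), and for Trp53inp1 they were 2700049A03Rik, Dock8 and Rbl1 (0.0796 to 0.105, own spread 0.915). Dock8, like Trp53inp1, had a lower mean in Runx1 c-k/o cells, with 74.9 ± 21.7 CPM at 3 h against 109.5 ± 3.62 CPM in Cre-only cells. Its spread was also wider there, as was that of Trp53inp1, whose lowest values came from the libraries with low long genes. The part of these libraries in the likeness was not tested. All these likenesses are descriptions over samples that share libraries and carry no test.

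Around the members, 4 wider lists of the pathway were counted. At rest 0 genes of any list were called between genotypes: 0 of 17 tested p53 regulators, 0 of 40 further p53 targets, 0 of 12 paralogs of the members and 0 of 14 GADD45 partners. Unadjusted p-values under 0.05 were found for 2, 5, 2 and 3 of them and for 11.1% of all genes, and DESeq2 called 0, 0, 0 and 1, against 2.79% of all genes. With the RUVs factor, and also without both libraries that stood apart, 2 targets were called higher and 1 partner lower. Over all genes these fits called 524 of 13538 and 598 of 13751. The smallest p-values at rest belonged to Chek2, Daxx and Rps27l among regulators, with log2 fold changes of -0.33, 0.20 and 0.59. Among targets they belonged to Ptp4a3, Pmaip1 and Ephx1 (0.36, -0.41 and 0.39), among paralogs to Sesn2, Phlda1 and Ccng2 (0.33, 0.49 and -0.28), and among partners to Tdg, Cdk1 and Ccnb1 (-0.37, -0.56 and -0.45). Pmaip1 encodes the BH3-only protein NOXA, Tdg a thymine DNA glycosylase, and Cdk1 and Ccnb1 the mitotic kinase and its cyclin.

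At 3 h 1 p53 target and 1 paralog were called between genotypes, and 0 regulators and 0 partners. The target was Sertad1, a regulator of CDK4 and of E2F-dependent transcription. It held 18.2, 18.9 and 16.7 CPM in Cre-only and 38.7, 26.4 and 22.8 CPM in Runx1 c-k/o cells, without overlap. Its log2 fold change was 0.71 (SE 0.162, adjusted p = 0.0389 by edgeR), with the highest value in a library that stood apart, and 0.48 without both of these (adjusted p = 0.00274). The paralog was Phlda1, a relative of Phlda3, at 1.17, 2.03 and 1.98 CPM in Cre-only and 4.31, 3.74 and 2.65 CPM in Runx1 c-k/o cells, and again the groups did not overlap. Its log2 fold change was 1.08 (SE 0.256, adjusted p = 0.045 by edgeR), and 0.95 without both libraries (adjusted p = 0.0329). Both calls were lost with the replicate number as a block (adjusted p = 0.0558 for Sertad1 and 0.0794 for Phlda1 by edgeR), with only the groups compared in the fit, and when any Cre-only sample at 3 h was left out. Leaving out 3-h Runx1 c-k/o replicate 2 also ended both calls (adjusted p = 0.0556 and 0.11 by edgeR), and leaving out replicate 1 of that group ended the call of Phlda1 (0.0939). DESeq2 called 5 targets, 2 paralogs, 1 regulator and 1 partner (Cdkn1a, which is also a member), all higher in Runx1 c-k/o cells. It called 5.24% of all genes at 3 h, and 59.5% of those were higher in Runx1 c-k/o cells. The next smallest p-values were those of Ddit4 and Sfn among targets (log2 fold changes of 0.75 and 0.65) and Btg3 and Btg1 among paralogs (0.55 and 0.29). Among regulators they were those of Daxx, Sirt1 and Atm (0.29, -0.28 and -0.71) and among partners those of Cdkn1a, Tdg and Ccnb1 (0.55, -0.32 and -0.56). Atm, a long gene, was at 48.7 CPM in the 3-h library that stood apart and at 126 and 171 CPM in the other Runx1 c-k/o samples. The RUVs factor gave 3 targets, 2 paralogs, 1 regulator and 1 partner called higher. It also gave 1 target, 1 regulator and 1 partner called lower, with 7.65% of all genes called. Without both libraries 5 targets, 2 paralogs, 1 regulator and 1 partner were called higher. There 1 regulator was called lower, and 6.65% of all genes were called. The medians of the lists at 3 h were -0.07 for regulators, 0.10 for targets, 0.07 for paralogs and -0.06 for partners, and over these lists lay between -0.12 and 0.14 when 1 sample was left out.

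**Figure D4:**
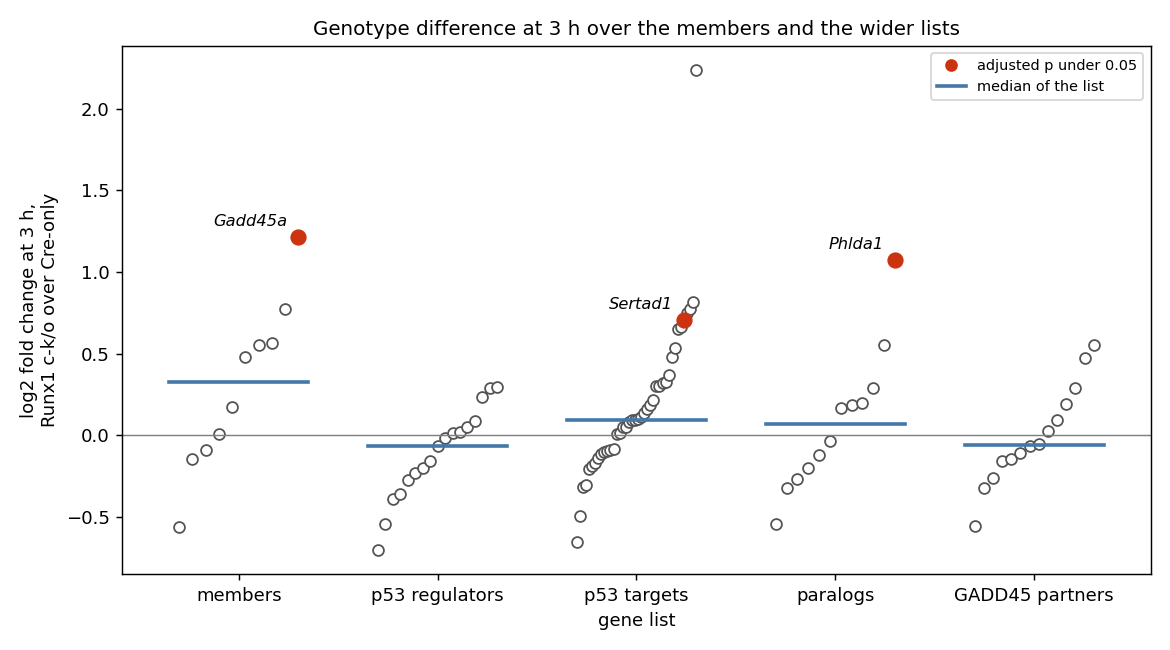
Log2 fold change of Runx1 c-k/o over Cre-only cells at 3 h (y axis, 1 point per tested gene, sorted within each list along x) for the 10 members and the 4 wider lists, filled red where the adjusted p was under 0.05, with the median of each list as a blue line. Gadd45a, Sertad1 and Phlda1 are the 3 filled points. The open point at 2.24 is Gdf15, which had 1 to 3 reads in each Cre-only sample at 3 h.

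In the interaction of genotype and activation, 0 genes of the 4 wider lists were called by edgeR and 0 by DESeq2, which called 0.613% of all genes. Unadjusted p-values under 0.05, which 5.07% of all genes had, were found for 1 paralog, Btg3 (0.51 on the log2 scale), and 1 partner, Cdkn1a (0.64). The smallest p-values elsewhere were those of Atm, Daxx and Trp53bp1 among regulators (-0.44, 0.10 and -0.16) and Cd82, Psrc1 and Trp53i11 among targets (-0.27, -0.56 and 0.55). Behind Btg3 came Btg1 and Phlda1 (0.37 and 0.59), and behind Cdkn1a came Map2k6 and Cdk1 (0.69 and 0.29).

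On activation genes of the wider lists were called in both directions. Over all genes 38.6% were called higher and 36.4% lower in Cre-only cells, and the shares with Runx1 deleted were 37.7% and 36.6%. The counts of the lists are read against these shares, with no test of a list. Of the 17 regulators 8 rose and 5 fell in Cre-only cells, and 9 rose and 5 fell in Runx1 c-k/o cells. The largest rises were those of Rps27l, a ribosomal protein paralog that binds MDM2 (4.57-fold and 3.72-fold), and of Trp53rk, a kinase that can phosphorylate p53 (4.22-fold and 3.92-fold). Rchy1, which encodes the p53 ubiquitin ligase PIRH2, fell 3.17-fold and 3.19-fold, and Ep300, the acetyltransferase p300, fell 1.90-fold and 2.21-fold. In the libraries that stood apart Ep300 was at 217 CPM at rest and 73.7 CPM at 3 h. The other Runx1 c-k/o samples held 345.5 and 348 CPM at rest and 161 and 177 CPM at 3 h. Of the 40 targets 13 rose and 21 fell in Cre-only cells, and 14 rose and 18 fell in Runx1 c-k/o cells. Aen, an apoptosis-enhancing nuclease, rose 5.90-fold and 5.28-fold, Sesn2 rose 3.51-fold in Cre-only cells, and the death receptor gene Fas rose 3.53-fold in Runx1 c-k/o cells. Trp53i11 fell 20.3-fold in Cre-only cells, and the polo-like kinase gene Plk2 fell 14.2-fold in Runx1 c-k/o cells. The genes given for 1 genotype moved the same way in the other. Mean CPM went from 27.5 to 87.4 for Sesn2 and from 386 to 27.9 for Trp53i11 in Runx1 c-k/o cells. In Cre-only cells it went from 4.03 to 10.6 for Fas and from 443 to 25.2 for Plk2. Gdf15, a stress-induced TGF-beta family cytokine, fell from 4.67, 4.73 and 7.19 CPM to 0.130, 0.131 and 0.0637 CPM in Cre-only cells, and from 5.04, 16.6 and 9.16 CPM to 0.258, 1.38 and 0.0589 CPM in Runx1 c-k/o cells. No fold is given for it because the 3-h values rest on so few reads.

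Among the 12 paralogs 2 rose and 8 fell in Cre-only cells, and 3 rose and 8 fell in Runx1 c-k/o cells. Gadd45g, the remaining GADD45 gene, rose like Gadd45b, 1.91-fold and 1.88-fold, and Sesn2 rose where Sesn1 fell. Cdkn1b, which encodes the quiescence-associated CDK inhibitor p27, fell 5.84-fold and 6.36-fold, and Trp53inp2 fell 5.69-fold and 6.23-fold. Of the 14 GADD45 partners 7 rose and 5 fell in Cre-only cells, and 8 rose and 4 fell in Runx1 c-k/o cells. The nucleolar chaperone gene Npm1 rose 3.91-fold and 3.75-fold and the p38 kinase activator gene Map2k3 3.31-fold and 3.55-fold. Map2k6, the other main p38 activator, fell 29.7-fold and 18.4-fold to under 1.2 CPM, and Mapk14, which encodes p38 alpha, fell 4.12-fold and 3.86-fold. Median log2 fold changes, Cre-only first and Runx1 c-k/o second, were 0.35 and 0.20 for regulators, -0.43 and -0.28 for targets, -1.45 and -0.97 for paralogs and 0.16 and 0.28 for partners.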

How the data were processed

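Per the labels and the study's methods, the authors added ERCC spike-in RNA, made stranded, poly(A)-selected, paired-end libraries, aligned reads with TopHat2 2.0.11 to mouse genome mm9 (NCBIM37) with Ensembl annotation, and deposited raw counts per gene from featureCounts without normalization. The strand setting, the control genes and the number of the RUV-seq factors in their DESeq2 comparison are not given in the sources used here. The table holds 0 spike-in entries, so spike-in scaling was not used here.

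The members, the wider lists and the alternatives were chosen with earlier results of these data known. Gene positions came from GENCODE annotation of the same build, and promoter windows from RefSeq (GRCm38.p6). Protein sequences were not used here. In R 4.3.3, filterByExpr of edgeR 4.0.16 with its minimum of 10 counts left 13538 genes, TMM normalization was applied, and a robust quasi-likelihood model with 1 term for each of the 4 groups was fitted to all 12 samples. Fold changes, SEs and p-values come from this model, and Benjamini-Hochberg adjustment ran over all tested genes with a threshold of 0.05. With 3 samples against 3, an exact permutation test of 1 gene cannot give a p under 0.1. TPM used the union of exon lengths. Tables and figures were made in Python 3.11.15 with pandas 2.3.3, and the fits were tested on simulated data. Replicates of a group differed by more than sampling noise in every pair of libraries, with chi-square values per degree of freedom of 2.86 to 76.3.

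Named genes were the 10 members, and of each wider list the 3 with the smallest p in each comparison of genotypes and the interaction, and the 2 largest called rises and falls on activation. The alternatives were DESeq2's size factors, library size only, no filter on low counts, 1 RUVs factor in edgeR, the Wald test of DESeq2 1.42.0, a block for the replicate number, a fit of just the groups compared, and each sample left out in turn. Leaving out both Runx1 c-k/o libraries with lower long genes was added after seeing the data. Cre-only samples with the same number at rest and at 3 h deviated together, with correlations of 0.275, 0.176 and 0.144 over genes. For Runx1 c-k/o samples these correlations were -0.254, -0.264 and 0.254. The highest between resting and 3-h Runx1 c-k/o samples, 0.477, joined both libraries with lower long genes. Such values do not settle whether the numbers pair the samples, so the block was kept as an alternative. Map3k4 and Tob2 have more than 1 identifier, of which the one with the most counts was used.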

Additional observations from a re-analysis of the deposited data

Results flagged for a closer look

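The fall of Gadd45a on activation differed between genotypes, by 1.07 on the log2 scale (SE 0.138), Runx1 c-k/o minus Cre-only, between rest and 3 h. It was singled out because the difference between the effects in these genotypes passed a test of its own, the interaction in edgeR's fit, with an adjusted p of 0.0116 over all tested genes. The call was lost in 6 of 20 alternatives. It was lost when samples of the same number were paired within genotype (adjusted p = 0.147 by edgeR). Leaving out any resting Cre-only sample, 3-h Cre-only replicate 3 or 3-h Runx1 c-k/o replicate 2 also ended it. What lies behind it was not tested.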

How the results depend on the processing

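At 3 h the count of members called between genotypes, 1, became 3 with DESeq2, 4 with 1 RUVs factor and 5 (3 higher and 2 lower) without both libraries with lower long genes, and ran from 1 to 2 when a sample was left out. Calls over all genes rose as well, from 375 to 709, 1036 and 914 in these 3 settings. For the interaction it was 0 with the replicate block within genotype and ran from 0 to 1 when a sample was left out. The counts at rest (0) and on activation (8 and 9) were the same under every alternative run, and the replicate block changed no other call of a member. Scaling by library size alone moved the median of all genes on activation from 0.03 to -0.10 in Cre-only and from 0.00 to -0.11 in Runx1 c-k/o cells.

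Among the members' differences between genotypes and changes on activation, and the interaction of Gadd45a, Cdkn1a and Btg2, 25 values of members that were not called changed sign, and the cause was not tested. The interaction of the other members was not recomputed one by one. The median interaction over the members, 0.12, was -0.04 without 3-h Runx1 c-k/o replicate 2. Leaving out both libraries gave -0.002 for Trp53 and 0.035 for Sesn1 at rest, and on activation -0.005 for Cdkn1a in Cre-only and -0.287 for Phlda3 in Runx1 c-k/o cells. Leaving out 1 sample gave ranges of -0.007 to 0.171 for Trp53, -0.199 to 0.019 for Cdkn1a, -0.019 to 0.058 for Ccng1 and -0.101 to 0.039 for Sesn1 at rest. At 3 h it gave -0.004 to 0.040 for Mdm2, -0.154 to 0.005 for Ccng1 and -0.175 to 0.341 for Sesn1, and on activation -0.074 to 0.147 for Cdkn1a in Cre-only and -0.164 to 0.539 for Phlda3 in Runx1 c-k/o cells. Library size only gave -0.015 for Ccng1 at rest, -0.023 for Mdm2 at 3 h and -0.085 for Cdkn1a in Cre-only cells, where DESeq2's size factors and its Wald test gave -0.044 and a fit of the groups compared -0.028. The RUVs factor gave 0.060 for Sesn1 at rest and -0.295 and -0.422 for Phlda3 on activation, Cre-only first. Depth limits Phlda3 most, at 4 to 18 reads per sample.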
